A study of Rattus norvegicus with 458 samples.

Results

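The testis was compared with the other organs of the adult rat through the counts of its small RNA. The testis libraries are those with the tissue label Testicle, 5 of the 215 libraries of the series, from rats 2, 3, 4, 5 and 6. They were set against 190 libraries of 21 other tissues, each tissue entering as 1 mean. The dorsal root ganglion was not used, since its libraries are technical repeats of pooled RNA, and 10 libraries whose profile is that of another organ were left out (4 duodenum, 3 hippocampus, 1 adrenal, 1 ovary and 1 uterus library). All animals were naïve Sprague Dawley rats of 12 to 13 weeks, 5 male and 5 female, and no group carried a treatment or an engineered allele. The testis came from the 5 male rats, and the ovary, with 4 libraries, from the female rats 7, 8, 9 and 10, so the gonads share no animal. Whole organs were used, so cells of different types are mixed, and fewer cells of a type cannot be told apart from less RNA per cell.

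MicroRNAs are cut as a duplex from a hairpin. The strand from its 5′ side is named 5p and the other 3p, and bases 2 to 8 of the mature strand, the seed, pair with target transcripts. The seminiferous tubules of the testis hold germ cells in all stages of spermatogenesis, supported by Sertoli cells and surrounded by smooth muscle-like peritubular cells. Germ cells of rodents are known for miRNAs of the miR-34 and miR-449 family and for a group of rapidly evolving miRNA genes on the X chromosome, and miR-202 is known from the gonads of many vertebrates.

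The sequences below are shown because they carry most of the counts that set the testis apart. They are the mature rat sequences of RefSeq in the build GRCr8, with the seed in capitals. Of the 98 single miRNA names that were higher in testis, 87 had a RefSeq entry of the same name, as had 393 of the 461 single names tested. The first group shares the seed GGCAGUG.
miR-34c-5p: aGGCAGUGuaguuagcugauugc
miR-34b-5p: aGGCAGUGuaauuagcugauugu
miR-449a-5p: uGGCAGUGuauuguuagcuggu
miR-449c-5p: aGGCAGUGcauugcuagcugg
miR-34a-5p: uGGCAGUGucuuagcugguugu
miR-34c-5p lies at chr8:60306133-60306155 and miR-34b-5p at chr8:60306657-60306679, both on the minus strand. The hairpin of miR-34c falls inside the annotated span of the protein-coding gene Hoatz. miR-449a-5p lies at chr2:46403925-46403946 on the plus strand, inside the span of an unnamed lncRNA gene, and miR-34a-5p at chr5:165815971-165815992 on the plus strand, also inside an lncRNA gene.

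The second group comes from the X chromosome, where the names lie on the minus strand in a pair of clusters. The seeds of the 3p names below differ from each other, although those of miR-743b-3p and miR-743a-3p share all but the last base, while miR-743a-5p and miR-871-5p share the seed AUUCAGA.
miR-743a-3p: gAAAGACGccaaacuggguaga
miR-743b-3p: gAAAGACAccauacugaauaga
miR-741-3p: aAAGAUGCcacgcuauguagau
miR-463-5p: uACCUAAUuuguuguccauca
miR-881-3p: uAACUGUGgcauuucugaauag
miR-871-3p: uGACUGGCaccauacuggauaa
miR-743a-5p: uAUUCAGAuuggugccugucau
miR-871-5p: uAUUCAGAuuggugccggucacau
miR-3585-5p: uUCACAAGaaggugucuuucau
miR-201-5p: cACUCAGUaaggcauuguuc
The last 2 belong to the second cluster. The marker miR-202-5p lies on another chromosome, at chr1:204184390-204184408 on the minus strand, inside the span of an lncRNA gene.
miR-202-5p: uUCCUAUGcauauacuucu
For 120 of the 128 names whose RefSeq sequence was looked up, the sequence most counted in the data had the seed of the RefSeq entry. No RefSeq entry was matched for miR-7210-5p, miR-7214-5p or miR-468-5p, which are named only.

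The testis libraries were the shallowest of the series, with totals of 376401 to 653651 counts (median 484824), against 1041508 to 17725805 for the other libraries used, so 1 count is worth 1.53 to 2.66 counts per 1000000 counts (CPM) in testis. RNA integrity numbers of the testis RNA were 7.5 to 7.8. Because of the depth, 300000 counts were drawn at random from each library for the tests, while CPM values are from all counts. The log2 fold change compares the testis with the mean of the 21 tissues on the log scale after upper quartile scaling, and a name is called at a Benjamini-Hochberg adjusted p under 0.05 in edgeR's quasi-likelihood test over all 611 names tested. Where a name has no thinned count in any library of some tissue, the size of its fitted change depends on a small added count, so CPM values are given in its place.

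The testis profile was dominated by a few names. The 3 leading names made up 48.6% of testis counts, the 5 leading ones 57.2% and the 10 leading ones 67.6%. They were miR-34c-5p, the vascular and visceral smooth muscle miRNA miR-143-3p, the HOX cluster miRNA miR-10b-5p, and then miR-22-3p, miR-30a-5p, miR-191a-5p, miR-181a-5p, miR-26a-5p, miR-16-5p and miR-92a-3p. Between testis libraries the correlation of log2 CPM lay between 0.895 and 0.963. The tissue nearest to the testis was the ovary, with a median correlation of 0.804 over names, followed by the uterus with 0.706. All 4 markers of the testis were present in all 5 libraries, and their sum was 1.44 to 2.42% of testis counts against 0.0846% in the ovary, the next tissue.

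The clearest feature of the testis was the miR-34 and miR-449 family, which is also known from ciliated epithelia and whose seed is shared across its 3 loci. The family took 30.7% ± 4.94 (SD, n = 5) of testis counts and 0.0589% in the mean of the other tissues. The table holds 17 of its names, of which 16 had counts in testis and 8 passed the filter on low counts. All 8 were called higher, against 21.6% of all names tested. They were also higher with TMM scaling, library totals, DESeq2 and limma, under which 39.9, 54.2, 27.8 and 17.7% of all names tested were higher. The list was chosen with earlier results of these data known, and members rare elsewhere pass the filter through the testis libraries. Calls and p-values of this family are therefore no independent test and are only described. Of the 8 names, all but miR-34a-5p lay in every testis library above every other library, which held for 71 of the 611 names (11.6%). miR-34c-5p itself was counted at 222707, 240507, 334677, 283672 and 309284 CPM in rats 2 to 6, a mean of 27.8% of all counts. The next tissue was the ovary with 2863 CPM, and the highest single library elsewhere, a brainstem library, had 4516 CPM, so the groups were far from overlapping. Its log2 fold change was 9.88 (SE 0.142, adjusted p = 3.84e-129, edgeR). miR-449a-5p had 13574, 11368, 14053, 16404 and 19146 CPM, with 157 CPM in the ovary. miR-34b-5p had 7344, 8921, 10737, 9005 and 10086 CPM, with 141 CPM in the ovary. The ovary level was 1.03% of the testis level for miR-34c-5p, 1.05% for miR-449a-5p and 1.53% for miR-34b-5p.

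miR-34a-5p, the member that lies apart from the others on chromosome 5 and is known as a target of p53, was different. It was called higher (log2 fold change 3.18, SE 0.18, adjusted p = 6.17e-40, edgeR), with 1118 to 1447 CPM in testis, but the brainstem had 1507 CPM and its highest library 2488 CPM. Summed over all names whose most counted sequence carries the seed GGCAGUG, the seed took 30.5% ± 4.96 of testis counts (24.6 to 36.2%), and the next tissue was the brainstem with 0.365%. The seed AGCAGCA of the miR-15 and miR-16 family, 2.47% ± 0.117 of testis counts, was the largest seed group beside it that was higher than in each of the 21 tissues, the highest of which was the cerebellum with 1.81%.

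**Figure D1:**
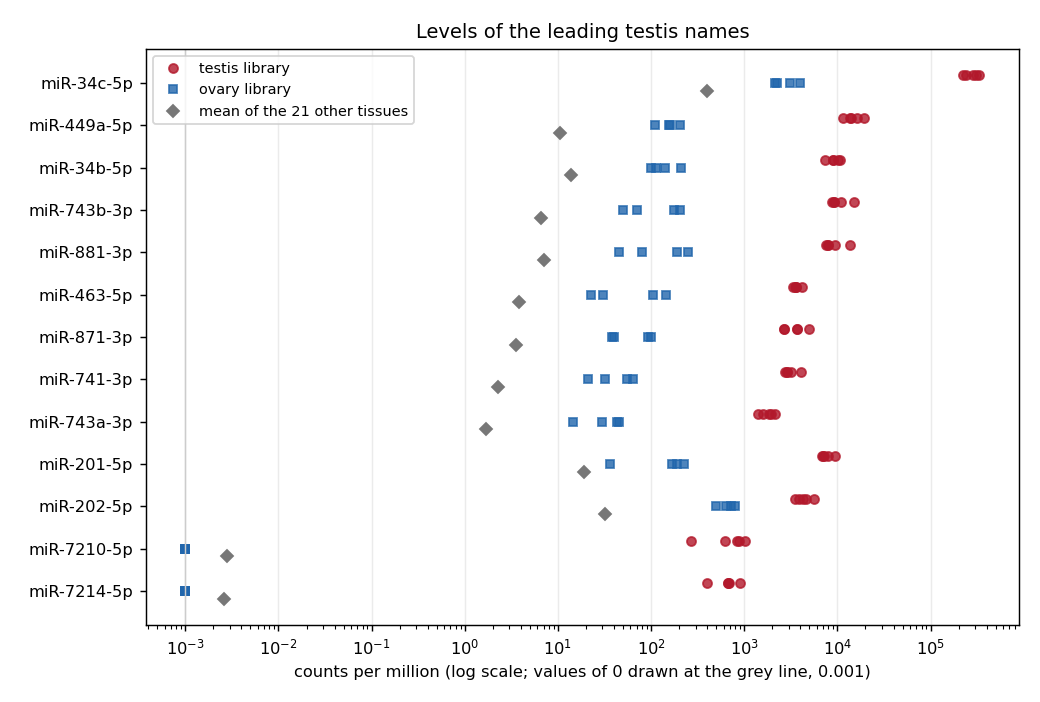
CPM, on a log axis, of 13 leading testis names in the 5 testis libraries (circles), the 4 ovary libraries (squares) and the mean of the 21 other tissues, ovary included (diamonds), with values of 0 drawn at 0.001. For each name the testis libraries lie to the right of the ovary libraries, by the least for miR-202-5p, and miR-7210-5p and miR-7214-5p were at 0 in the ovary.

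The X-linked names form the second feature. They are little conserved outside mammals, and in rodents they are known from meiotic and later germ cells. Of the 36 names of the X-linked germ cell list in the table, 31 had counts in testis and 28 passed the filter on low counts. Names nearly absent elsewhere pass this filter through the testis libraries, where they are high, so the calls of these 28 are only described. All 28 were higher under the 3 scalings run in edgeR (21.6, 39.9 and 54.2% of all names tested) and by limma (17.7%). DESeq2 called 8, near the 27.8% of all names that it called higher. With the rat as a block 16 were called, against 17.3% of all names tested. miR-743b-3p was the most counted name of the list, with 8845, 15149, 10795, 9199 and 9135 CPM in rats 2 to 6 and 126 CPM in the ovary. miR-881-3p had 7554, 13472, 9474, 7867 and 7855 CPM, against 140 CPM in the ovary and 7.09 CPM in the mean of the tissues. miR-741-3p had 2890, 4044, 3176, 2764 and 2886 CPM, against 43.1 CPM in the ovary. Rat 3 was the highest testis library for each of these 3 names.

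The list made up 4.19, 6.26, 4.68, 4.11 and 4.18% of the counts in rats 2 to 6. With each of the 10 rats represented by the mean of its other tissues (0.00144 to 0.00817%), the difference was 4.68 percentage points, and the exact two-sided permutation test gave p = 0.000333, the smallest that 3003 splits allow. Against the 5 male rats alone the exact permutation p was 0.00794, also the smallest possible. With the rat as a block, the 5 within-rat differences gave p = 0.0625, which is the smallest that 32 sign flips allow, for a difference of 4.68 points (exact permutation of signs). All 5 differences were positive. The list was chosen with earlier results of these data known, and it holds the testis markers miR-881-3p and miR-741-3p. A higher share in testis was thus built into the choice of names. These p-values are therefore no independent test of it, and the shares are only described.

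The clusters differ in how far they reach outside the testis. They were defined by position and also hold names that are not on the list (miR-3551, miR-3580 and miR-3585). The first, at chrX:150444098-150488232, holds 26 names of 14 hairpins, 22 of them on the list and 4 not, and made up 3.79% ± 0.797 of testis counts. Of these, 22 passed the filter. The second, at chrX:151706741-151732870, starts 1218508 bases further on. It holds the 7 names of miR-3585, miR-201-5p, miR-547 and miR-509, of which 5 are on the list and all 7 passed the filter, with 2.89% ± 0.314 of testis counts. miR-3585-5p, which is not on the list, was the most counted name of both clusters, with 17010, 17702, 16931, 14832 and 16352 CPM. In the ovary, the 22 tested names of the first cluster stood at 1.05 to 3.85% of their testis level (median 1.57%) and the 7 of the second at 1.73 to 6% (median 2.98%). In the mean of the 20 tissues without the ovary, the same names of the first cluster stood at 0.00393 to 0.0133% of the testis level (median 0.0071%) and the second at 0.0999 to 0.506% (median 0.167%), with no overlap between the clusters. The 4 names of the first cluster that did not pass the filter had at most 14.4 CPM in testis and are not in these ranges. Names of a cluster lie close together and are not independent, so these ranges are a description.

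**Figure D2:**
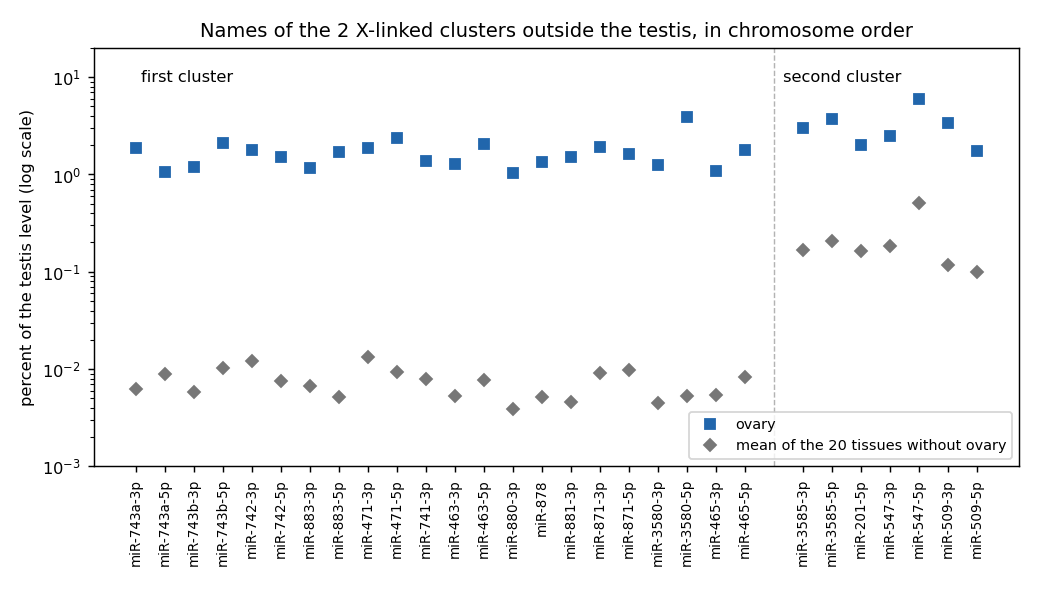
Level outside the testis, as a percent of the mean testis CPM on a log axis, of the 29 tested names of the X-linked clusters, in the ovary (squares) and in the mean of the 20 other tissues (diamonds). Names are in chromosome order, and the dashed line separates the clusters. The ovary values of all 29 names lie between 1.05 and 6%, and the second cluster is higher than the first in the other tissues.

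By tissue, the share of counts on the X-linked list was next highest in the ovary, with 0.0504, 0.123, 0.0395 and 0.101% in rats 7 to 10. The heart (0.0107% ± 0.00187, n = 10) and the kidney medulla (0.0099% ± 0.00165, n = 10) followed and did not differ beyond their spread. The whole kidney had 0.00521% and the kidney cortex 0.0041%, and whole blood was lowest with 4.22e-05%. On the X chromosome as a whole, 70 names with a single locus were tested, of which 39 were higher and 13 lower in testis. The 25 that belong to the list were all higher, and of the other 45, 14 were higher and 13 lower, against 81 higher and 127 lower of the 374 single-locus names of all chromosomes. Among the 14 are the 4 tested names of the clusters that the list leaves out.

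The remaining markers are not X-linked. miR-202-5p had 4586, 5627, 4232, 3539 and 3858 CPM in testis. The ovary had 638, 786, 500 and 726 CPM, so the testis libraries were all above the ovary libraries, by 6.59-fold in the means. The difference was called (adjusted p = 0.00113, edgeR). miR-202-5p is itself a testis marker, so a higher level in testis was built into its choice. This p-value is therefore no independent test, and the levels are only described. The ovary level of miR-202-5p was 15.2% of the testis level, above that of any tested name of the X-linked clusters. The other arm, miR-202-3p, did not pass the filter on low counts.

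miR-7210-5p was counted at 835, 1028, 623, 266 and 869 CPM in rats 2 to 6, with rat 5 the lowest. Over the 190 other libraries it had 4 counts in all, beside 1699 in testis, which is a ratio of pooled CPM of 172398 (95% counting interval 67209 to 633460). miR-7214-5p had 685, 895, 662, 400 and 665 CPM. Its 1580 testis counts stood against 3 elsewhere. miR-468-5p had 80.4 to 138 CPM, 280 counts in testis and 0 in the other 190 libraries, so it was at least 37882-fold higher, taking 3 counts over the whole group as the floor. The intervals and the floor cover counting error only, because PCR copies of a molecule could not be recognised. None of these 3 names had a count among the 19139185 counts of the ovary. For miR-7210-5p this allows at most 0.0216% of the testis level, whereas the tested names of the X-linked clusters stood at 1.05% or more, and 1% of the testis level would have been 139 counts. These 3 names passed the filter through the testis libraries, and no test is given for them.

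Names of an imprinted locus and of embryonic clusters were at lower levels. miR-298-5p and miR-296-5p, from the imprinted Gnas and Nespas locus, had 639 to 975 and 193 to 313 CPM in testis, and the next tissue of both was the brainstem, with 502 and 20.8 CPM. Of this pair 3 names were tested, and 3 were called higher in edgeR (21.6% of all names) and 2 in DESeq2 (27.8%). Of the cluster of miR-290 to miR-295, known from embryonic stem cells, only miR-293-5p of 14 names was tested. It had 35.2 to 69.1 CPM in testis, was called higher than the mean of the tissues (adjusted p = 1.37e-20, edgeR) but not by DESeq2, and the ovary libraries, with a mean of 34.7 CPM, overlapped with it. Of the Sfmbt2 cluster, a large rodent cluster expressed in placenta, 17 names had counts in testis but none passed the filter.

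miRNAs of the cell cycle clusters (miR-17 to miR-92a and the paralogous clusters of miR-106b and miR-363), which proliferating cells are known to express, were moderately higher. Of 14 tested members, 9 were called higher and none lower, against 21.6 and 29.5% of all names. With TMM and with library totals all 14 were higher (39.9 and 54.2% of all names), with DESeq2 12 (27.8%) and in limma 8 (17.7%). Together they took 2.36% of testis counts. miR-92a-3p had 15585, 18693, 17834, 14436 and 16866 CPM, a log2 fold change of 0.92 (SE 0.119, adjusted p = 3.36e-12, edgeR), while whole blood had 18808 CPM. miR-19b-3p rose by a log2 fold change of 1.1 (SE 0.216). miR-25-3p, with 2640 to 3347 CPM, was not called, at −0.04 (SE 0.113, adjusted p = 0.938, edgeR). miR-16-5p, whose family restrains the cell cycle, was at 19545 to 22556 CPM, with a log2 fold change of 0.15 (SE 0.109, adjusted p = 0.311, edgeR).

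**Figure D3:**
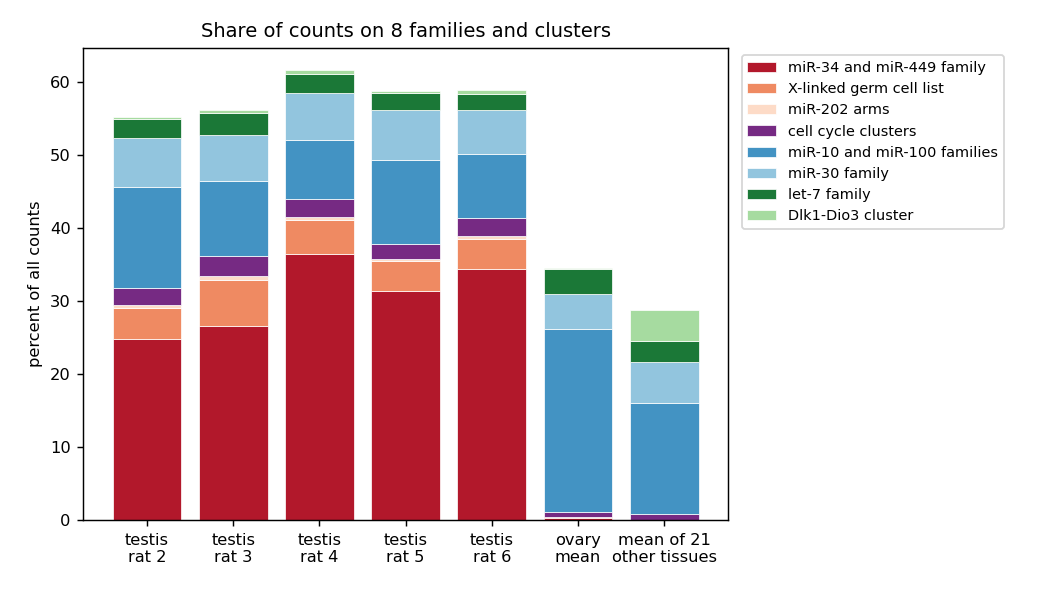
Share of all counts, as stacked bars in percent, that 8 families and clusters take in each testis library, in the ovary mean and in the mean of the 21 tissues. The miR-34 and miR-449 family runs from 24.8 to 36.4% across the testis libraries and is below 1% in both other bars, and the Dlk1-Dio3 cluster is 0.40% in testis against 4.25% in the mean of the tissues.

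Across all 611 names, 132 were higher in testis (21.6%) and 180 lower (29.5%). The split depended on the scaling. TMM scaling gave 244 higher and 85 lower (13.9%), library totals 331 and 34 (5.56%), and DESeq2's size factors 170 and 128 (20.9%). The median log2 fold change of all names moved with it, from −0.78 under upper quartile scaling to 0.14, 0.77 and 0.04. All 132 higher names were called higher under the 3 scalings in edgeR, and 86 names (14.1%) in all 4, while 34 names (5.56%) were lower in all 4. Of the higher names, 98 were single miRNA names, 6 composite, 20 predicted and 8 precursor names. None of the 281 names with no thinned count in some tissue was called lower, while 83 of the 132 higher names were among them. limma, in which a prior count of 2 sets a floor for such tissues, called 319 names lower (52.2%). Lower levels are therefore given for names that were lower in all 4 scalings.

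**Figure D4:**
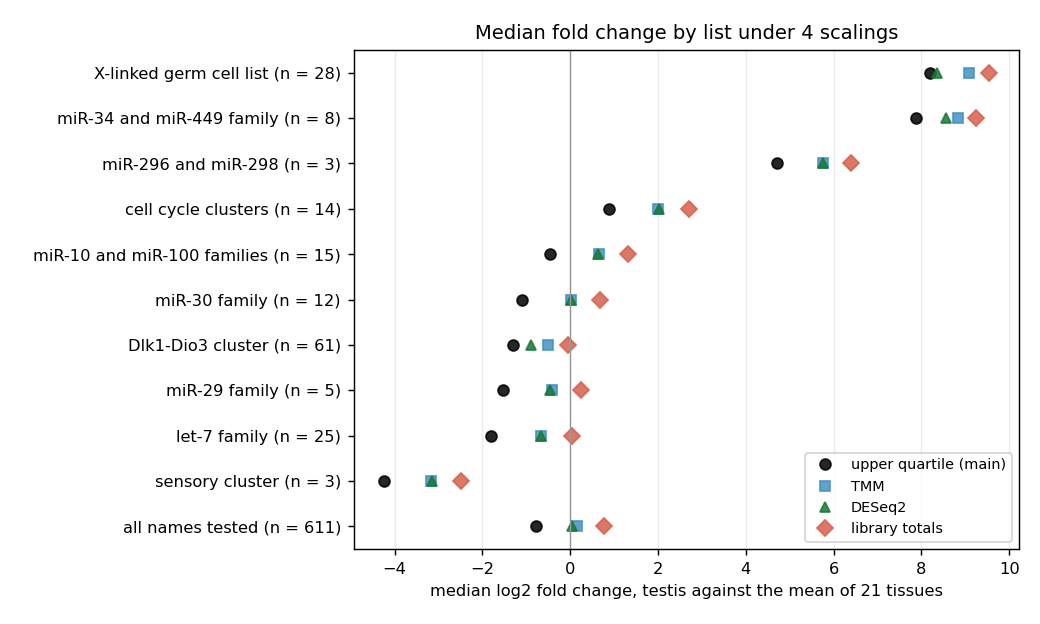
Median log2 fold change, testis against the mean of the 21 tissues, of the names of 10 lists and of all 611 names under upper quartile, TMM, DESeq2 and library total scaling. The X-linked list, the miR-34 and miR-449 family, miR-296 and miR-298 and the cell cycle clusters lie to the right of 0 and the sensory cluster to the left under all 4, as does the Dlk1-Dio3 cluster, while the miR-10 and miR-100, miR-30, miR-29 and let-7 families move across 0.

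The 34 names lower in testis under all 4 scalings included some that lead in single organs and some that most organs share. miR-182, which with miR-183 and miR-96 is made from 1 transcript in sensory and endocrine cells, had 45.2, 141, 147, 155 and 79.8 CPM in testis and 2595 CPM in the mean of the tissues (log2 fold change −4.88, SE 0.532, adjusted p = 6.51e-16, edgeR). miR-183-5p had 2.66 to 30.9 CPM against 245 CPM, with a log2 fold change of −4.24 (SE 0.589). Of the 3 sensory names tested, 2 were lower in edgeR (29.5% of all names) and 3 in DESeq2 (20.9%) and limma (52.2%). In heart the level of miR-182, 28.1 CPM, was below that in testis.

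Others lower in all 4 were miR-139-5p (log2 fold change −4.75) and miR-149-5p (−3.86), both leading in brain. miR-192-5p, a miRNA of gut and kidney, was at 1127 to 2384 CPM against 41041 CPM, a log2 fold change of −3.13, and miR-194-5p from the same transcripts was at −3.06. miR-378a-3p, which lies in a gene of oxidative metabolism and leads in muscle, was at 2067 to 2991 CPM against 14060 CPM, and miR-10a-5p at 2294 to 7122 CPM against 61367 CPM. The arms of the miR-23, miR-27 and miR-24 clusters (miR-23a-3p, miR-23b-3p, miR-27a-3p, miR-27b-3p, miR-24-3p) and miR-26a-5p and miR-26b-5p were also lower in all 4. miR-26a-5p had 18235 to 24807 CPM, below the 41061 CPM of the tissue mean, with a log2 fold change of −2.38 (SE 0.14), and yet was among the 10 most counted names of testis. Few names were lower than in every organ. In 13 names (2.13%) every testis library lay below the mean of each of the 21 tissues. Among them miR-301b-3p was called lower (log2 fold change −3.01, SE 0.936, adjusted p = 0.00341, edgeR), with 0 counts in all 5 testis libraries and 3.07 CPM in the mean of the tissues, a level at which few counts were to be seen at the depth of the testis.

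In families that most organs share, the number of calls and even their direction depended on the scaling. The let-7 family, which restrains growth and rises with differentiation, took 2.55% of testis counts, and 19 of its 25 tested names were lower and none higher, where 29.5% of all names were lower. With TMM 15 were lower and 2 higher, where 13.9% of all names were lower and 39.9% higher. DESeq2 gave 14 lower and none higher (20.9 and 27.8% of all names), and limma 20 and none (52.2 and 17.7%). With library totals 5 were higher and 1 lower, where 54.2% of all names were higher. Against the ovary 21 were lower and none higher, where 35.2% of all names were lower. let-7f-5p, its leading member, had 6571 to 10170 CPM in testis against 8631 CPM in the mean of the tissues. Of 12 miR-30 names, 10 were lower (29.5% of all), but with library totals 9 were higher (54.2% of all), and miR-30a-5p had 31148 to 36058 CPM against 29789 CPM. The imprinted Dlk1-Dio3 cluster of chromosome 6, known from brain and embryo, took 0.40% of testis counts and 4.25% of the tissue mean. Of its 61 tested names 7 were lower and none higher, fewer than the 29.5% over all names would give. limma called 50 lower, where 52.2% of all names were, while TMM scaling gave 7 higher and none lower, where 39.9% of all names were higher. Its leading testis name, miR-127-3p, had 1266 to 3257 CPM, below the 29712 CPM of the tissue mean and above the 849 CPM of the ovary.

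Within the miR-10 and miR-100 families the members went in different directions. miR-10b-5p had 104800, 72803, 61571, 85313 and 68485 CPM in testis, with a log2 fold change of 1.1 (SE 0.197), and miR-100-5p 3485 to 5669 CPM, with a log2 fold change of 1.25 (SE 0.17). Both were higher than the mean of the 21 tissues in all 4 scalings. miR-10a-5p was lower in all 4, by a log2 fold change of −3.44 (SE 0.32). Of the 15 names tested in these families, 3 were higher and 6 lower, beside 21.6 and 29.5% of all names. With TMM 9 were higher and 1 lower (39.9 and 13.9% of all names), and with library totals 13 and 1 (54.2 and 5.56%). DESeq2 gave 8 higher and 3 lower (27.8 and 20.9%), and limma 2 and 7 (17.7 and 52.2%). Against the ovary none of the 15 was higher and 13 were lower, beside 16.5 and 35.2% of all names. The families took 10.5% of testis counts and 25.1% of ovary counts, and 7 tissues had more than the testis.

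Against the ovary alone, 101 names were higher in testis (16.5%) and 215 lower (35.2%). The balance turned with the scaling, to 153 higher (25%) and 147 lower (24.1%) with TMM, 193 (31.6%) and 110 (18%) with library totals, and 119 (19.5%) and 130 (21.3%) with DESeq2. miR-34c-5p exceeded the ovary by a log2 fold change of 5.35 and miR-449a-5p by 5.45. The names that were lower by the most were miRNAs of epithelia and a few others. miR-429 had 11.7 to 76.3 CPM in testis and 593 CPM in the ovary (log2 fold change −5.36, adjusted p = 2.64e-28, edgeR), and miR-200a-3p 4.7 to 37.1 CPM against 330 CPM. miR-335 had 0 to 6.19 CPM against 74.1 CPM. Among X-linked names outside the germ cell list, miR-322-5p (815 to 1127 CPM) and miR-542-3p (154 to 187 CPM), which lie in 1 cluster, were lower than in the ovary, by log2 fold changes of −3.79 and −3, although both were higher than the mean of the 21 tissues. The smooth muscle miRNA miR-143-3p had 108027 to 149005 CPM in testis and 338398 CPM in the ovary.

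Markers of other cell types were read in the same libraries. The 4 names for smooth muscle and fibroblasts took 11 to 15.2% of testis counts, nearly all of it miR-143-3p, and 7 tissues had more. The 3 erythrocyte names took 0.00872 to 0.165%, the 3 leukocyte names 0.0312 to 0.0571%, the 5 names of columnar epithelium 0.0122 to 0.0262%, the 3 of striated muscle 0.0228 to 0.138%, the 2 of neurons 0.0144 to 0.0321% and the hepatocyte name 0 to 0.00352%. The 2 endothelial names chosen were at 0 in testis, since the counts of miR-126 stand under the names of miR-126a. The erythrocyte sum is likewise too low, as it leaves out the composite name of miR-3107-5p and miR-486-5p. The seed CCUGUAC, which this composite name leads, took 0.707% of testis counts and 86% of those of whole blood. The erythrocyte sum in whole blood was only 1.22%. The part of these cells in the testis values was not tested.

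A set of predicted miRNA names behaved differently from the listed miRNAs. Among the 20 predicted names that were called higher, most varied by about 10-fold or more among the testis libraries, with rats 2, 3 and 6 high and rats 4 and 5 low. The most counted, a predicted name on the X chromosome whose seed is given as that of miR-3620-5p, had 3492, 6145, 389, 586 and 4211 CPM in rats 2 to 6. It was also at 206 CPM in the duodenum library of rat 3, and at 1619 CPM in the ovary library of rat 11, which was left out. With the rat as a block this name was not called (adjusted p = 1, edgeR). In contrast miR-34c-5p differed by less than 2-fold between any testis libraries.

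Beyond amounts, the ends of the counted sequences differed. The mean length of counted sequences was 22.3 ± 0.223 bases in testis (22.1 to 22.7) and 21.90 to 21.97 bases in the means of the 10 rats over their other tissues. The difference was 0.352 bases (exact two-sided permutation p = 0.000333, the smallest possible). With the rat as a block it was 0.346 bases (p = 0.0625, exact sign flips, the smallest possible), and all 5 differences were positive. In flow cell D1GBMACXX, which held a run of every testis library, the difference was 0.195 bases (exact permutation p = 0.00366), and rat 6 was at 21.7 bases, below the rat means of 21.87 to 21.91. In the other flow cells it was 0.377 bases. Lengths in 1 testis library depended on a sequencing lane. In the run of rat 5 in lane 8 of flow cell C2BUMACXX, 40.9% of counts carried the seed of the most counted sequence of their name, against 94.5 to 96.8% in the other 9 testis runs, including the other run of rat 5. All 14 libraries with a run in this lane had 46.8 to 58.4%, against 80.4 to 99.4% in the rest. Without the runs of this lane the difference in length was 0.285 bases (exact permutation p = 0.000333) and the testis libraries had 22.1 to 22.3 bases. The mean length of a library depends on which miRNAs it holds, and whole blood, at 22.3 bases, was as long as the testis.

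Within single names the direction was more often shorter. Without lane 8, 65 of the 74 names with enough counts differed in mean length (87.8%, exact permutation test, adjusted p under 0.05), 38 shorter (51.4%) and 27 longer (36.5%). Small differences were called too, as the rat means, each taken over many tissues, varied little. With lane 8 included, 49 of 131 names were called (37.4%), 30 longer (22.9%) and 19 shorter (14.5%), and all 27 of these names that could be tested without the lane were called in the same direction. In 26 of the 74 names (35.1%) the testis mean lay outside the range of all tissue means, as it did in 32.8% of the 131 names with lane 8.

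The 5p names of miR-100, miR-99a, miR-99b and miR-125b, which are made as paralogous clusters with let-7, were shorter in testis than in each of the 21 tissues. miR-100-5p had a mean length of 21.02 ± 0.103 bases in testis and 21.6 ± 0.0101 in the rat means. Its most counted sequence in testis ends 1 base earlier than elsewhere. It is shown with the seed in capitals and with T as in the deposited table.
miR-100-5p, most counted in testis: aACCCGTAgatccgaacttgt
miR-100-5p, most counted elsewhere: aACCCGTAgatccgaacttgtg
The shorter form made up 33.7% ± 2.8 of miR-100-5p counts in testis and 28.1% on average in 181 other libraries, and the longer form 28.1% ± 3.07 in testis and 47.5% elsewhere. The range of the longer form in testis, 25.2 to 33.2%, lay below that of all other libraries, 35.4 to 56.8%.

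miR-30a-5p was likewise shorter in testis, by 0.591 bases (adjusted p = 0.000536, exact permutation), than in the rat means and than in 20 of the 21 tissues. Here the leading form lost 4 bases at the 3′ end.
miR-30a-5p, most counted in testis: tGTAAACAtcctcgactgga
miR-30a-5p, most counted elsewhere: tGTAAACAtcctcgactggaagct
The short form made up 38.8% ± 1.84 in testis and 24.7% on average elsewhere, where single libraries ranged from 2.57 to 58.5% and so overlapped with the testis. miR-425-5p went the other way and was longer than in all 21 tissues, by 0.565 bases (adjusted p = 0.000536, exact permutation). So was the composite name of miR-486-5p, a miRNA of erythrocytes, in which the form with 1 more base at the 3′ end made up 55.4% ± 2.41 in testis and 15 to 33.5% in all other libraries. Of the X-linked names, miR-201-5p was shorter by 0.66 bases than in the 6 tissues with enough counts. Over 83 names with enough counts, 6 had another leading sequence in testis than elsewhere, and none of these had another seed.

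**Figure D5:**
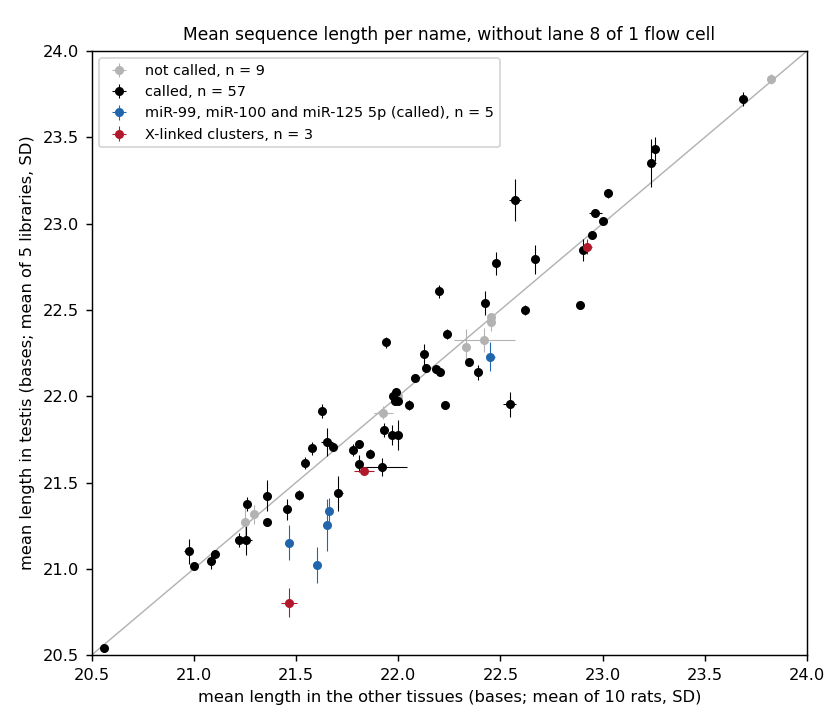
Mean length in bases of the counted sequences of 74 names in testis (mean of 5 libraries, vertical, bars for the SD) against the other tissues (mean of 10 rats, horizontal, bars for the SD), without lane 8 of flow cell C2BUMACXX. Points on the diagonal have equal lengths. The 5p names of miR-99a, miR-99b, miR-100, miR-125a and miR-125b and miR-201-5p lie below it, and miR-425-5p, at 23.1 against 22.6 bases, lies above it.

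The seed share was called in 5 of 131 names with all runs (3.82%) and in 27 of 74 without lane 8 (36.5%), which includes small differences. Among the 27, miR-140-3p, which is known to be cut at more than 1 start, differed by the most, and miR-126a-3p, next, by 5.50 points. The share of miR-140-3p of counts with the most common seed was 42.8% ± 2.99 in testis and 56.9% ± 0.469 in the rat means without lane 8 (adjusted p = 0.00224, exact permutation), below each of the 21 tissues. With all runs miR-142-5p (41.8% against 63%) and miR-1839-5p (49.9% against 65.3%) were also lower, and neither had enough counts to be tested without the lane. The mean of miR-142-5p includes 15.7% in rat 5, the library with a run in lane 8, while rats 2, 3, 4 and 6 had 43.4 to 51.9%.

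The choice of arm differed for 55 of 94 hairpins (58.5%, exact permutation test, adjusted p under 0.05), in 32 toward 5p (34%) and in 23 toward 3p (24.5%). The calls include very small differences, such as miR-23a with 0% on 5p in testis and 0.0222% in the rat means. miR-192, with 100% against 99.96%, was called as well. At the depth of the testis, few or no counts of so rare an arm were to be seen. miR-547, of the second X-linked cluster, had 33.3% ± 2.75 of its counts on 5p in testis and 57.7% ± 4.68 in the rat means, where 24 libraries had enough counts. miR-34b had 82.2% ± 3.51 on 5p in testis and 63.4% ± 3.65 in the rat means. Only 44 libraries of 6 other tissues had enough counts of it, and the highest of them had 82.4%. miR-872 had 85.2% ± 5.26 against 69.6% ± 1.28 and miR-151 49.9% ± 3.89 against 34% ± 0.809, and both were higher in testis than in each of the 21 tissues. miR-136 of the Dlk1-Dio3 cluster had 45.8% ± 4.51 against 28% ± 1.3. All 5 hairpins had an adjusted p of 0.00104, given by the smallest p that the exact test allows.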

How the data were processed

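Small RNA of 23 tissue labels was prepared with a TruSeq kit and sequenced on a HiSeq2000. The authors trimmed adaptors (the submitters' processing notes name cutadapt 1.4.1), aligned reads to miRBase and deposited the number of reads per miRNA name and per isomiR sequence in each run, as whole counts without normalization. Labels gave tissue, rat, sex, flow cell and lane. Here the 458 runs were summed per library, leaving out 14 that repeat a flow cell lane of the same library. The members and gene lists were chosen with earlier results of these data known.

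For the tests each library was thinned once to 300000 counts, and names were filtered by filterByExpr with its minimum count of 10. edgeR 4.0.16 in R 4.3.3 fitted 1 coefficient per tissue to 195 libraries, with upper quartile scaling and the quasi-likelihood F test. TMM, library totals, DESeq2 1.42.0 and, chosen after seeing the data, limma with a prior count of 2 were alternatives. On simulated counts with log2 changes of 2 in both directions (dispersion 0.2, 449 names) the fit recovered 98.4% of 192 changed names, with 15 calls among the unchanged. With all changes upward it recovered 76.5% of the 196 changed names among 454 names in all. The unchanged names then had 190 false calls and a median log2 fold change of −1.03, against −0.32 with changes in both directions. How far such a shift enters the 180 lower calls in the data was not tested.

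A library's length and seed shares come from the isomiR table, with at least 50 counts of a name per library. Seed share is the share of counts whose bases 2 to 8 equal those of the most counted sequence of the name. Tests of these and of the X-linked share were exact permutations of 5 testis libraries against 10 rat means. The tissues of a rat come from the same animal, so the rat number pairs samples by design. After removal of group means, testis and other tissues of the same rat correlated at −0.562 to 0.0683, and 0 of 5 testis libraries correlated best with their own rat. The alternatives include the same model with a term for the rat (the block). Python 3.11.15 with numpy 2.4.6, pandas 2.3.3, scipy 1.17.1 and matplotlib 3.10.9 was used for the rest.

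Named miRNAs are the 4 markers, the 12 largest fold changes among names that separate the testis from every other library, the 10 most counted names, names called lower and below every tissue mean, up to 4 leading members of each list, the 5 largest differences from the ovary in each direction, and the 4 largest differences in length, seed share and 5p share. Names lower in all 4 scalings, miR-468-5p, miR-34a-5p, miR-10a-5p, miR-322-5p, miR-542-3p, miR-486-5p, miR-872 and the paralogs of miR-100-5p were added after their values were seen.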

Additional observations from a re-analysis of the deposited data

Results flagged for a closer look

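Within the 5 testis libraries, 84 sets of values were checked for a sample far from the others by Dixon's criterion at the 95% level, which chance alone meets in about 1 of 20, and 9 met it. Rat 3 had 6.26% of its counts on the X-linked germ cell list, against 4.11 to 4.68% in the others, and also stood out for miR-293-5p (69.1 CPM against 35.2 to 37.6), miR-291b (13.3 CPM against 0 to 2.35) and miR-29a-5p (31.9 CPM against 7.65 to 12.3). Rat 4 was high for miR-181a-5p, with 24941 CPM against 21441 to 22061. Rat 5 was high for miR-429 (76.3 CPM against 11.7 to 26.7) and had the only count of miR-182-5p (2.06 CPM), as rat 2 had of the precursor name of miR-7210 (2.06 CPM). The seed share of rat 5 was 50.5% against 96 to 96.5%, and it is the library with a run in lane 8 of flow cell C2BUMACXX.

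Libraries outside the comparison also held counts of the X-linked list. The left-out hippocampus library of rat 7 had 0.0736% of its counts on it, against 0.000212 to 0.000904% in the hippocampus libraries used and 0.0395 to 0.123% in the ovary, and it had 414 CPM of miR-202-5p. Among the 10 dorsal root ganglion libraries, which come from 2 pools, the highest had 0.00226%.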

How the results depend on the processing

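The counts of calls moved with the filter on low counts, the scaling and the depth. The 132 names higher and 180 lower than the other tissues became 244 and 85 with TMM scaling and 331 and 34 with library totals. Without thinning they were 264 and 281, and in flow cell D1GBMACXX alone, thinned to 40000 counts, 81 and 74. With no filter on low counts 411 were higher, limma called 319 lower, and thinning to 100000 counts left 114 lower. Against the ovary, the 101 higher became 153 (TMM), 193 (library totals), 215 (not thinned) and 56 (D1GBMACXX alone), and the 215 lower became 130 (DESeq2), 110 (library totals), 90 (D1GBMACXX alone) and 142 (thinned to 100000). The 71 names that separate the testis became 119 without thinning and 35 in D1GBMACXX alone. The causes were not tested, beside the fewer counts and names that shallower settings hold. Keeping the 10 left-out libraries gave 112 higher.

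With the rat as a replicate block, the differences were 4.68 points for the X-linked share and 0.346 bases for mean length, each with the smallest p that sign flips of 5 pairs can give. For the X-linked share this p is no independent test, since the list was chosen with earlier results of these data known. Of the 132 higher names 106 were still called. miR-7210-5p was among those that were not, and 16 of the 28 tested names of the X-linked list were called. All 180 lower names were called lower. Against the ovary, which shares no rat with the testis, the model with the block gave 75 higher and 209 lower. Names that differed in length were 22 with male rats only. Names that differed in seed share were 2 and 14 with minimums of 100 and 20 counts, 0 with male rats only (the exact test of 5 against 5 has a larger smallest p) and 27 without lane 8.

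Leaving out 1 library at a time gave 120 to 124 higher and 170 to 180 lower, 93 to 110 and 195 to 216 against the ovary, 63 to 69 names that separate the testis, 4.28 to 4.82 points, 0.256 to 0.39 bases, 45 to 91 names for length, 4 to 96 for seed share and 50 to 59 hairpins for arm. The values of 91 and 96 are those without rat 5.

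Of the named miRNAs, 20 that were below 0 under upper quartile scaling changed sign. With TMM, the log2 fold change was 0.45 for miR-143-3p, 0.0101 for miR-30a-5p, 0.37 for miR-191a-5p, 1.09 for miR-25-3p, 0.47 for miR-434-3p, 0.0798 for miR-411-5p, 0.0631 for miR-30d-5p, 0.0758 for miR-29a-3p, 0.30 for miR-99b-5p and 0.0251 for miR-125a-5p. With DESeq2 the same names were at 0.46, 0.0274, 0.39, 1.11, 0.50, 0.0927, 0.0704, 0.0832, 0.30 and 0.0184, and with library totals at 1.15, 0.71, 1.07, 1.79, 1.16, 0.75, 0.77, 0.77, 1.00 and 0.74. With library totals the other 10 were at 0.43 (miR-181a-5p), 0.26 (miR-127-3p), 0.12 (let-7f-5p), 0.0829 (let-7c-5p), 0.55 (let-7g-5p), 0.25 (let-7a-5p), 0.50 (miR-30e-5p), 0.39 (miR-30c-5p), 0.24 (miR-29c-3p) and 0.25 (miR-29b-3p). Depth limits what can be seen in testis, where 1 count is 1.53 CPM or more.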
